A study of Mus musculus with 4 samples.

Results

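Cytochromes P450 are haem enzymes that insert an oxygen atom into lipids, steroids, vitamins, drugs and inhaled chemicals. In the microsomal members the electrons come from one partner, the P450 oxidoreductase encoded by Por. The lining of the nose is among the richest sites of these enzymes outside the liver, and in rodents the olfactory mucosa is known for Cyp2a5, Cyp2f2, Cyp2g1 and Cyp1a2, which act on odorants and other inhaled compounds. The P450 genes described here were taken from the expression table by symbol: Cyp, a family number, 1 letter and a gene number. By that rule 91 of the 23281 listed genes were members. Another 10 P450 symbols, 5 of them pseudogenes, have a different form and were left out, among them Cyp51 and the Cyp4a12 pair.

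The members were compared between 1 library of respiratory basal cells (RBCs) and 3 libraries of horizontal basal cells (HBCs). RBCs are stem cells of the respiratory lining of the nose, and HBCs are reserve stem cells at the base of the olfactory epithelium. The RBCs were microdissected from mice of the strain KRT5-CreER;Ai9-fl(stop)TdTomato, in which Cre driven by the keratin 5 promoter switches on a red reporter, and were sorted as TdTomato+. The HBCs came from wildtype mice, were grown in vitro under control conditions to passage 3, and have no sort in the labels. The sources used here give neither age, sex nor the number of animals, and tissue of origin, culture, strain and sorting cannot be told apart in this comparison.

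Levels are FPKM as the authors deposited them (fragments per kilobase of transcript), divided by 1 factor per library that ranged from 0.845 to 1.07. Above 0 were 17713 genes in RBCs and 15093 to 15308 in HBCs, and the number of reads per library is unknown. HBC means are given with their SD over 3 libraries, while RBCs have 1 library and no SD. A gene was called where limma, fitted to log2(value + 1) over all 16438 genes tested, gave a Benjamini-Hochberg adjusted p below 0.05 together with a change of 2-fold or more. The model takes its spread from the HBC libraries and applies it to the lone RBC library. Nothing in the labels states that the HBC libraries are separate cultures, so these p-values measure only the spread between libraries, which may be technical. An exact permutation test of 1 library against 3 cannot go below p = 0.25 (one-sided), so none was run. Fold changes are ratios of levels, and log2 changes are RBC minus HBC on the log2(value + 1) scale. Members below about 3 were near the worth of a few reads: the smallest deposited value above 0 of a member had a median of 1.36 over members. No fold is given where the level of either group was below 10.

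The sequences shown first are the promoters of the members on which the comparison turns: Cyp2f2 and Cyp2a5, which carried most of the P450 level, Cyp2a4, the close paralog of Cyp2a5, Cyp1a2, which was seen in the RBC library only, and Cyp1b1, which was higher in the HBC libraries. Each window runs from 250 bases before to 50 bases after the transcription start, in the RefSeq annotation of GRCm38.p6 (the submitters' processing notes name mm9), and is written 5′ to 3′ on the gene's strand. Capitals mark 3 short motifs found on either strand: GCGTG, the core bound by the aryl hydrocarbon receptor with its partner; TTGGC, a half-site of nuclear factor I proteins; and TATAAA, a sequence near many starts that binds the basal transcription machinery. The windows lie at chr7:27119705-27120004 (+) for Cyp2f2, chr7:26835089-26835388 (+) for Cyp2a5, chr7:26306942-26307241 (+) for Cyp2a4, chr9:57683606-57683905 (-) for Cyp1a2 and chr17:79715012-79715311 (-) for Cyp1b1.
Cyp2f2: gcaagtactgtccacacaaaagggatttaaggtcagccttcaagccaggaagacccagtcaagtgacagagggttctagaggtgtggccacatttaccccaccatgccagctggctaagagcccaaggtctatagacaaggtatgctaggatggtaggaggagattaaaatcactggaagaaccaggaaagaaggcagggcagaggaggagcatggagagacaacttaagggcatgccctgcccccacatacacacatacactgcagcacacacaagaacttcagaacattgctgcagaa
Cyp2a5: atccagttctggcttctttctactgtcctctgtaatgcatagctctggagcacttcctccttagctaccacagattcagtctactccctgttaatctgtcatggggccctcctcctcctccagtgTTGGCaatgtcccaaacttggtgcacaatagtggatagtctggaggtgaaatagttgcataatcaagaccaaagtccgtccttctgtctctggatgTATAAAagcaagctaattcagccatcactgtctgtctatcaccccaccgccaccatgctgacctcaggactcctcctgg
Cyp2a4: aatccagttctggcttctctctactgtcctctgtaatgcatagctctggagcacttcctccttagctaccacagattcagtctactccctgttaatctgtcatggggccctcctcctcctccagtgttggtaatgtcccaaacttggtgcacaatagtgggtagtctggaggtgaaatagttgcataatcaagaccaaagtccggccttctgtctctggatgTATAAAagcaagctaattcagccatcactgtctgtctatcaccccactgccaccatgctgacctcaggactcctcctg
Cyp1a2: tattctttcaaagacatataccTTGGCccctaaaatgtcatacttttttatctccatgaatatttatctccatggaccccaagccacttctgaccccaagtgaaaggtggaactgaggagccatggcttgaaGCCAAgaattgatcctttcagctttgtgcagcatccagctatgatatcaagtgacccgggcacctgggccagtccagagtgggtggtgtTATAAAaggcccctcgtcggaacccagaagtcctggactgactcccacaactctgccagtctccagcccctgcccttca
Cyp1b1: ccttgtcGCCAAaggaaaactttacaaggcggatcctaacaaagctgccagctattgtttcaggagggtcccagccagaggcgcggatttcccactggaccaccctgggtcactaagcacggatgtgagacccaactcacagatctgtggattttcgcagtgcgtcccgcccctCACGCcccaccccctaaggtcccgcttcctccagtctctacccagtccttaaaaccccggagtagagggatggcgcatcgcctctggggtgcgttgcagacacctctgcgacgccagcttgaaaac

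The windows of Cyp2a5 and Cyp2a4 were identical at 294 of 301 aligned positions (97.7%), and the TTGGC of Cyp2a5 was not found in Cyp2a4. Both had TATAAA, which began 29 bases before the start in Cyp2a5 and 28 in Cyp2a4, and Cyp1a2 had it 29 bases before the start. Cyp2f2, the most abundant member, held none of these motifs in the window. Cyp1b1 was the only one of the 5 with GCGTG, 76 bases before its start, and it had no TATAAA. Among all 32851 promoter windows of the table, GCGTG was found in 32.4%, TTGGC in 46.7% and TATAAA in 13.6%. Among the 80 windows of the 70 members that matched, they were found in 16, 49 and 32 windows. A match describes the letters in the window and nothing about binding.

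Summed over members, the P450 level was far higher in the RBC library than in the HBC libraries. The summed level of the 91 members was 143356 in RBCs, against 8299, 8433 and 8087 in HBC libraries 1, 2 and 3 (8273 ± 175), a 17.3-fold difference. The members made up 1.54% of the summed level of all genes in RBCs and 0.0831% ± 0.0031 in HBCs. These sums, and the shares of the summed P450 level below, leave out the P450 symbols outside the rule. Of those symbols, Cyp51 was at 432 in RBCs and averaged 1018 ± 7.98 in HBCs, and Cyp4a12b was at 1356 and averaged 446 ± 29.4. In RBCs 29 members reached a level of 10 and 21 reached 100, whereas in HBCs 18 and 9 did so on average. More genes of any kind were above 0 in RBCs as well (17713 against 15093 to 15308), so these counts are a description. In these bulk libraries, fewer cells of a type and less RNA per cell cannot be told apart.

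**Figure D1:**
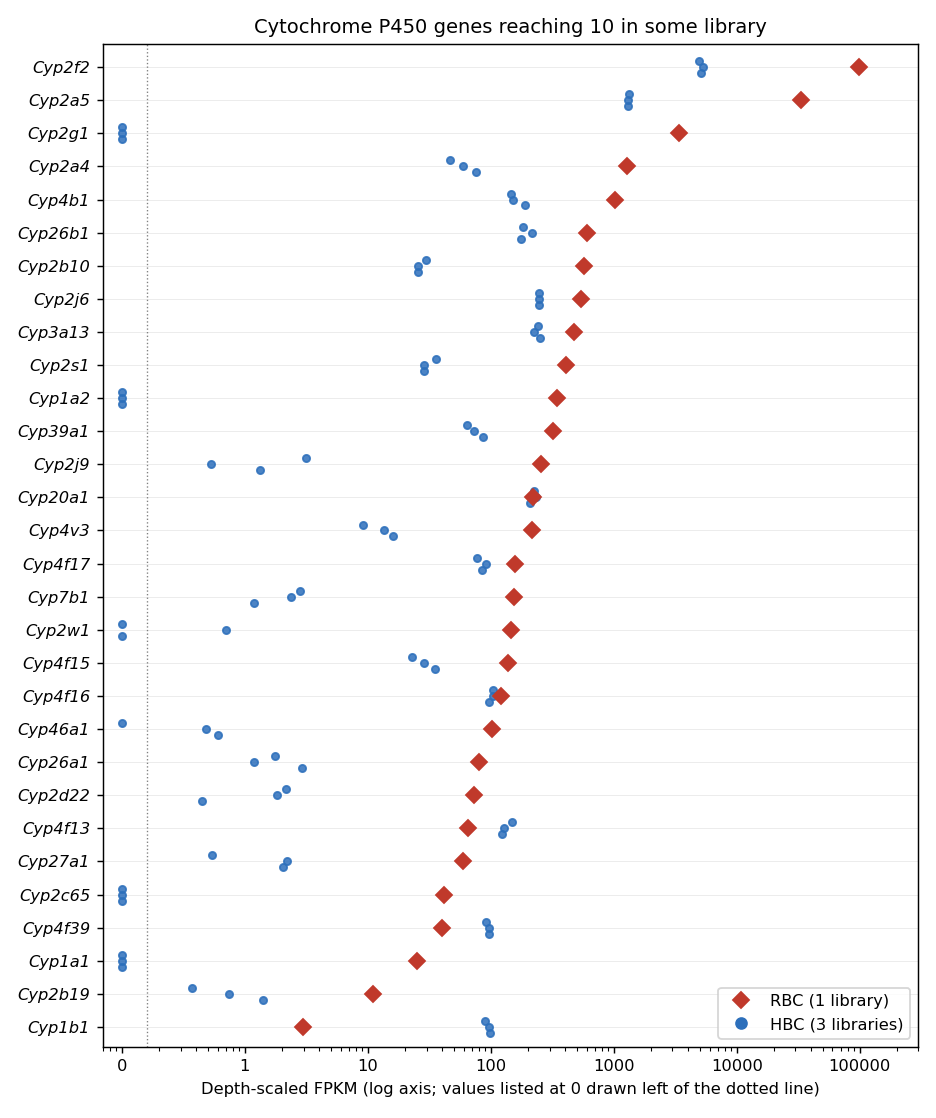
Level of the 30 P450 genes that reached 10 in some library (depth-scaled FPKM, log axis), ordered by the RBC value, with red diamonds for the RBC library and blue points for each HBC library. Most diamonds lie right of the blue points, while Cyp1b1, Cyp4f39 and Cyp4f13 lie left of them and Cyp20a1 lies among them.

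Of the 91 members, 28 were listed at 0 in all 4 libraries, among them Cyp7a1 and Cyp8b1 of bile acid synthesis, Cyp21a1 and both Cyp11b genes of adrenal steroid synthesis, and 10 of the 15 Cyp2c genes, many of them liver drug-metabolising enzymes. Of these 28, 12 share at least 20% of their 50-base words in GENCODE M21 with other P450 genes, up to 60.3% in Cyp2c40, and Gapdh, which nearly all cells express strongly, was at only 8.99 to 57.3 in these libraries, so a listed 0 does not show that a gene was silent. Another 20 were above 0 somewhere but too low to test. Of the 43 tested, 31 were called higher in RBCs, where 34.2% of all genes tested were so called, and 3 were called higher in HBCs, against 12.8% of all genes. The share of calls that were higher in RBCs was 91.2% among members and 72.7% among all genes, and over all genes it was 54.9% once library medians were equalised and 46.3% after quantile normalization, where that of the members was 90.9% and 85.2%. The filter admitted 15 of the 43 members through their RBC value, since they averaged below 1 in HBCs, so their direction followed from the filter and the count of 31 is a description. Among the 26 members above 0 in all 4 libraries, a set counted after the data had been seen, 19 were called higher in RBCs (25.5% of the 13714 such genes) and 3 higher in HBCs (14.5% of such genes). The median log2 change was 2.45 over these 26 members and 0.17 over all such genes.

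**Figure D2:**
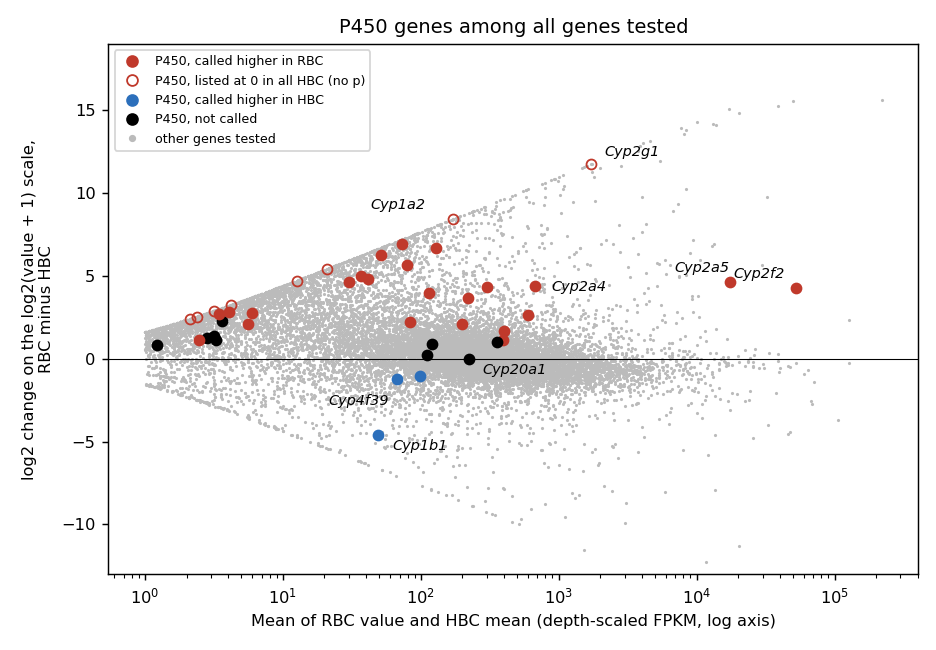
Log2 change (RBC minus HBC, on the log2(value + 1) scale) against the mean of the RBC value and the HBC mean (depth-scaled FPKM, log axis) for all genes tested in grey and for 43 P450 genes in colour. Cyp2f2 and Cyp2a5 stand at the right with log2 changes of 4.27 and 4.66, and Cyp1b1 is the lowest P450 point at -4.59; open circles are members at 0 in every HBC library, whose position depends on the pseudocount.

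Family 2, the largest family of xenobiotic-metabolising P450s, held almost the whole difference. Of its 19 tested genes (of 47, with Cyp2r1 counted under vitamin D), 18 were called higher in RBCs, against 34.2% of all genes tested. The other, Cyp2b13, was at 6.62 in RBCs and averaged 0.644 ± 0.697 in HBCs (limma adjusted p = 0.0554). Of the 18, 5 were at 0 in every HBC library. These 5, together with Cyp2b13, Cyp2b19, Cyp2e1, Cyp2t4 and Cyp2w1, averaged below 1 in HBCs. The filter admitted them through their RBC value, so their direction followed from the filter. The family's summed level was 139172 in RBCs and 6817 ± 146 in HBCs, which is 97.1% of the summed P450 level in RBCs and 82.4% ± 0.302 in HBCs.

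Cyp2f2 activates naphthalene and other small aromatics in mouse airway and nasal cells. It stood at 99044 in RBCs, against 5114, 5299 and 4967 in HBC libraries 1, 2 and 3. The single RBC value thus lay far above 3 closely spaced HBC values, a 19.3-fold difference (log2 change 4.27 ± 0.06 SE, limma adjusted p = 0.000163). Cyp2f2 was the P450 with the highest level in each library, where it ranked 5 among all genes in RBCs and between 246 and 285 in HBCs.

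Cyp2a5, the mouse coumarin hydroxylase, which also oxidises nicotine, was second in every library. It was at 33331 in RBCs and at 1312, 1299.6 and 1338 in HBCs. The HBC values differed from one another by little (SD 19.8), and RBCs were 25.3-fold higher (log2 change 4.66 ± 0.02 SE, limma adjusted p = 1.77e-05). Cyp2a4, a testosterone hydroxylase, was at 1279 in RBCs and at 75.8, 59.0 and 46.9 in HBCs, a 21.1-fold difference (log2 change 4.41 ± 0.34 SE, limma adjusted p = 0.00454). In GENCODE M21, 36.1% of the 50-base words of Cyp2a4 transcripts also occur in Cyp2a5, so the split of reads between these paralogs is uncertain. Cyp2a5 exceeded Cyp2a4 by 26.1-fold in RBCs and by 22.6 ± 5.65 in HBCs. Of the other subfamily genes, Cyp2a12 was at 6.32 in RBCs and at 0 in every HBC library, and Cyp2a22 was at 0 throughout.

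Cyp2g1, a steroid-metabolising P450 known almost only from olfactory mucosa, parted the groups completely. It was at 3419 in RBCs, behind Cyp2f2 and Cyp2a5 alone among members there, and at 0 in each of the 3 HBC libraries, so no fold is given. Cultures with Cyp2f2 and Cyp2a5 above 1000 therefore had no listed Cyp2g1 signal. In the make-up of the summed level, the Cyp2f, Cyp2a and Cyp2g subfamilies took 69.1%, 24.1% and 2.38% in RBCs. In HBCs they took 62.0% ± 0.766, 16.7% ± 0.513 and 0%. The ratio of Cyp2f2 to Cyp2a5 was 2.97 in RBCs and 3.90 ± 0.183 in HBCs.

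**Figure D3:**
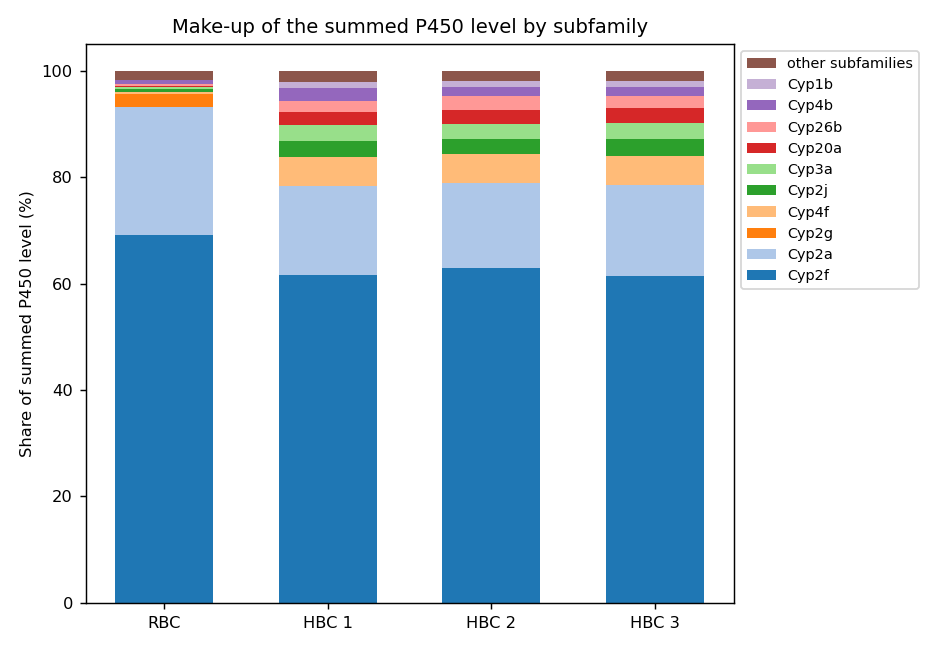
Share of the summed P450 level (percent) taken by each subfamily in the RBC library and in HBC libraries 1 to 3. Cyp2f fills 69.1% of the RBC bar and 62.0% on average of the HBC bars, Cyp2g is visible in the RBC bar alone, and the Cyp4f band averages 5.40% in HBCs against 0.369% in RBCs.

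The remaining Cyp2 genes were lower in level and most differed in the same direction. Cyp2b10, the phenobarbital-inducible P450, was at 572 in RBCs and at 25.7, 25.6 and 29.8 in HBCs (21.2-fold, limma adjusted p = 0.000915). Cyp2s1, an epithelial P450 that responds to the aryl hydrocarbon receptor, was at 410 in RBCs and at 28.7, 28.8 and 35.7 in HBCs (13.2-fold, limma adjusted p = 0.00208). For both genes the RBC library lay well above an HBC group of narrow spread. The arachidonic acid epoxygenase Cyp2j6 differed least among the called Cyp2 genes, with 540 in RBCs against 244.5, 247 and 245 in HBCs (2.20-fold, limma adjusted p = 0.000202), and it did not reach 2-fold once library medians were equalised (log2 change 0.63). Its relative Cyp2j9 was at 255 in RBCs and at 1.33, 0.534 and 3.17 in HBCs.

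Several Cyp2 genes that stood between 10 and 150 in RBCs were near the level of single reads in HBCs. Cyp2w1, known from fetal gut and tumours, was at 146 in RBCs and at 0, 0.709 and 0 in HBCs. Cyp2d22, a drug-metabolising member, was at 72.3 in RBCs and averaged 1.47 ± 0.898 in HBCs. Cyp2c65, known from the intestine, was at 42.0 in RBCs and at 0 in every HBC library. Cyp2b19, a keratinocyte epoxygenase of the mouse epidermis, was at 11.1 in RBCs and averaged 0.836 ± 0.519 in HBCs. The calls of Cyp2j9, Cyp2d22 and Cyp2b19 were each lost without 1 HBC library, while their log2 changes moved little. Without library 1, Cyp2j9 had a log2 change of 6.66 (6.70 with all libraries) and a limma adjusted p of 0.0523 (range 0.000791 to 0.0523 over the alternatives). Without library 2, Cyp2d22 had a log2 change of 5.10 (4.97 with all) and a limma adjusted p of 0.0533 (0.000953 to 0.0533). Cyp2b19 had 2.74 without library 2 (2.76 with all) and a limma adjusted p of 0.0764 (0.00280 to 0.618). The Cyp2b19 call was also lost after quantile normalization and with a pseudocount of 10.

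Most of the abundant Cyp2 genes lie side by side on chromosome 7. Between Cyp2s1 and Cyp2t4 the RefSeq annotation of GRCm38.p6 places 18 protein-coding genes, of which 13 are members and 5 are vomeronasal receptor and Nlrp genes. The 13 members made up 96.3% of the summed P450 level in RBCs and 79.3% ± 0.284 in HBCs. Of the 13, 9 were called higher in RBCs, against 34.2% of all genes tested. Of the rest, 1 was not called and 3 were too low to test. Among the 9, Cyp2b19, Cyp2g1, Cyp2a12 and Cyp2t4 averaged below 1 in HBCs, so the filter admitted them through their RBC value. Levels were uneven along the cluster: Cyp2b9, Cyp2b23 and Cyp2a22 were below 1 in RBCs although Cyp2a4, Cyp2g1 and Cyp2a5 stand close by, and the 5 interspersed genes were at most 4.99 in RBCs and at 0 in HBCs.

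**Figure D4:**
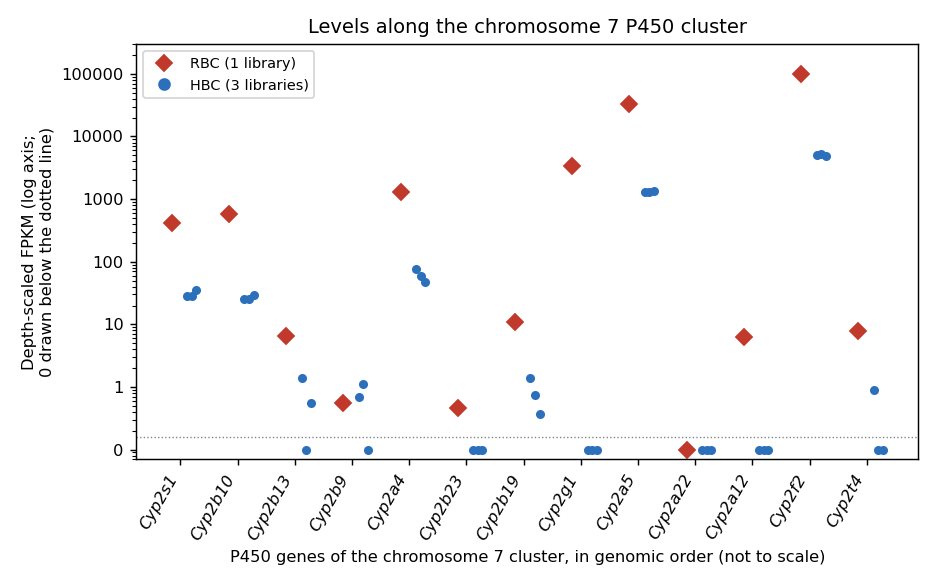
Level (depth-scaled FPKM, log axis) of the 13 P450 genes of the chromosome 7 cluster in genomic order, not to scale, with red diamonds for the RBC library and blue points for the 3 HBC libraries. Cyp2f2, Cyp2a5, Cyp2g1 and Cyp2a4 are the 4 highest in RBCs, and among these Cyp2g1 is at 0 in HBCs.

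In family 1, the classical targets of the aryl hydrocarbon receptor, members differed in opposite directions. Cyp1a2, which oxidises aromatic amines, was at 343 in RBCs and Cyp1a1, which oxidises polycyclic hydrocarbons, was at 25.2, and both were at 0 in each HBC library. Cyp1b1, which oxidises oestrogens and procarcinogens outside the liver, was at 3.00 in RBCs and at 98.3, 96.6 and 90.3 in HBCs. It was called higher in HBCs (log2 change -4.59 ± 0.10 SE, limma adjusted p = 0.000476), the most negative change among the members tested, and its log2 change lay between -6.22 and -3.01 under the 12 alternatives.

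Of family 3, whose members dominate drug oxidation in the liver, 1 gene of 7 was high enough to test. Cyp3a13, a mouse member expressed outside the liver, was at 474 in RBCs and at 249.5, 223 and 242 in HBCs. At 1.99-fold it stood just under the minimum change (limma adjusted p = 0.00524), and it passed that minimum with values as deposited (log2 change 1.10), with equal sums (1.09), after quantile normalization, and without HBC library 1 or 3. Cyp20a1, a member with no settled substrate, was level at 221 in RBCs and 209, 234 and 225 in HBCs, with the RBC value inside the HBC range (limma adjusted p = 0.960).

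Family 4, which hydroxylates fatty acids and eicosanoids at the chain end, was mixed. Of 10 tested genes of 15, 4 were called higher in RBCs, 2 higher in HBCs and 4 were not called. Cyp4b1, an airway P450 that activates the plant toxin ipomeanol, was at 1024 in RBCs and at 189, 150 and 147 in HBCs (6.31-fold, limma adjusted p = 0.00433). Cyp4v3, a fatty acid hydroxylase, was at 217 in RBCs and at 16.1, 13.6 and 9.09 in HBCs (16.7-fold, limma adjusted p = 0.00737). In both genes every HBC library lay below the RBC library.

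The Cyp4f subfamily, which includes leukotriene hydroxylases, summed to 529 in RBCs and 447 ± 3.70 in HBCs, a 1.18-fold difference, and its members differed in opposite directions. Cyp4f39 was at 40.1 in RBCs and at 96.4, 95.9 and 90.5 in HBCs, 2.35-fold higher in HBCs (limma adjusted p = 0.00264). Its human counterpart hydroxylates very long fatty acids for lipids of the skin barrier. Cyp4f13 was at 64.9 in RBCs and at 124, 127 and 148 in HBCs, 2.05-fold higher in HBCs (limma adjusted p = 0.0143). This call failed without HBC library 1 (adjusted p = 0.0502), 2 (0.0648) or 3 (log2 change -0.94), with values as deposited, with equal sums and with a pseudocount of 10, and its adjusted p ranged from 0.00110 to 0.103.

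In the other direction, Cyp4f15 was at 137 in RBCs and at 35.4, 28.4 and 22.9 in HBCs (4.75-fold, limma adjusted p = 0.0142), a call that was lost without HBC library 2 (0.0714, range 0.00860 to 0.0714). Cyp4f17 was at 158 in RBCs and averaged 84.5 ± 7.55 in HBCs, below the 2-fold minimum, which it passed with values as deposited (log2 change 1.01). Cyp4f16 was at 120.3 in RBCs and averaged 102 ± 4.38 in HBCs (limma adjusted p = 0.0658), but its log2 change was negative once library medians were equalised (-0.26) and after quantile normalization (-0.42). It shares 16.3% of its 50-base words with Cyp4f37, so some of its reads may belong there.

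All 4 tested members of sterol and bile acid metabolism, of 6 in the class, were called higher in RBCs, against 34.2% of all genes tested. Cyp51, a sterol P450 that the symbol rule left out, was called higher in HBCs (432 in RBCs against 1018 ± 7.98 in HBCs). Cyp39a1, an oxysterol hydroxylase, was at 321 in RBCs and at 87.0, 72.8 and 63.5 in HBCs (4.31-fold, limma adjusted p = 0.00842). Cyp7b1, another oxysterol hydroxylase, was at 155 in RBCs and at 1.18, 2.37 and 2.81 in HBCs (log2 change 5.69 ± 0.43 SE, limma adjusted p = 0.00425). Cyp46a1, the cholesterol hydroxylase of neurons, was at 102 in RBCs and at 0.604, 0.485 and 0 in HBCs. The filter admitted Cyp46a1 through its RBC value. Cyp27a1, the mitochondrial sterol hydroxylase, was at 59.1 in RBCs and at 2.06, 2.20 and 0.545 in HBCs. The HBC cultures thus held 1 member of the class, Cyp39a1, above a few reads. Cyp39a1 missed the threshold without HBC library 2 (limma adjusted p = 0.0523, range 0.00307 to 0.0523) and Cyp27a1 without library 1 (0.0535, range 0.00118 to 0.0535).

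Both tested retinoic acid hydroxylases, which degrade this differentiation signal, were called higher in RBCs, against 34.2% of all genes tested. Cyp26b1 was at 606 in RBCs and at 177, 215 and 184 in HBCs (3.16-fold, limma adjusted p = 0.00600). Cyp26a1 was at 80.2 in RBCs and at 2.93, 1.18 and 1.75 in HBCs (log2 change 4.82 ± 0.43 SE, limma adjusted p = 0.00590). Cyp26b1 was thus the retinoic acid hydroxylase with the higher level in all 4 libraries, and Cyp26c1 did not exceed 0.682 in any.

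P450s of vitamin D and steroid hormone synthesis were low in both groups. Cyp2r1, which makes the circulating form of vitamin D, was at 8.45 in RBCs and at 0 in every HBC library. Cyp27b1, the activating enzyme, was at 4.16 in RBCs and averaged 1.43 ± 1.32 in HBCs (limma adjusted p = 0.316), and Cyp24a1, the degrading enzyme, was at 0 throughout. The 6 members of steroid hormone synthesis, Cyp11a1 among them, summed to 3.32 in RBCs and 1.05 ± 1.01 in HBCs, which is the level of a few reads. The 33 members above 0 that never reached 10 had their highest value in Cyp2u1, 9.54 in RBCs against 1.52 ± 0.565 in HBCs.

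Of 12 tested redox partners, which include the electron donors that P450s need, RBCs were called higher in 2 and HBCs in 2, against 34.2% and 12.8% of all genes tested, and 8 were not called, with a median log2 change of 0.25 against 0.45 over all genes tested. Por was at 5648 in RBCs and at 5507, 5773 and 5593 in HBCs, so the RBC value lay inside the HBC range (limma adjusted p = 0.890), and its log2 change was -0.49 once library medians were equalised, which moves the median of all genes by a similar amount (to -0.05). Cytochrome b5, Cyb5, was at 8320.2 in RBCs and averaged 4261 ± 241 in HBCs, 1.95-fold and not called, although it was called with equal sums, after quantile normalization and without HBC library 3. With values as deposited Cyb5 also passed the 2-fold minimum (log2 change 1.08), but its limma adjusted p was 0.0588. Cyb5r3, which reduces cytochrome b5, and the haem-binding Pgrmc1 were 2.40-fold and 2.32-fold higher in RBCs (4122 against 1715 ± 140, and 10627 against 4582 ± 77.7), and neither reached 2-fold once library medians were equalised (log2 change 0.77 and 0.71). The reductases Cyb5r4 and Cyb5r1 were 3.57-fold and 2.17-fold higher in HBCs (164 in RBCs against 585 ± 28.5 in HBCs, and 483 against 1048 ± 27.4).

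**Figure D5:**
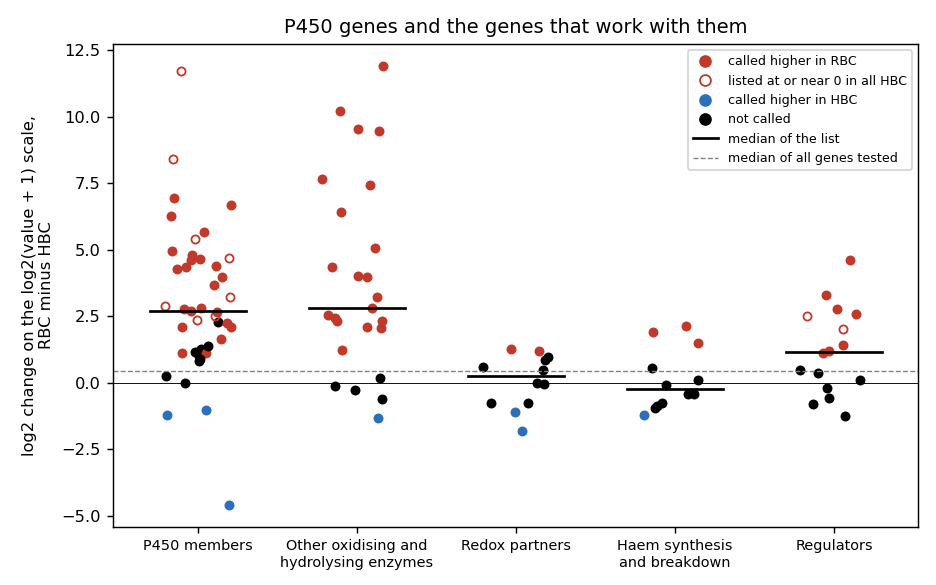
Log2 change (RBC minus HBC, on the log2(value + 1) scale) of each tested P450 gene and of each tested gene of 4 companion lists, with a bar at each median and a dashed line at the median of all genes tested (0.45). The medians are 2.71 for the P450 members, 2.80 for other oxidising and hydrolysing enzymes, 0.25 for redox partners, -0.24 for haem genes and 1.15 for regulators. The P450 median was 4.09 with a pseudocount of 0.1, 1.10 with a pseudocount of 10 and 1.17 after quantile normalization. The median of all genes tested was 0.46, 0.31 and -0.10 in these settings.

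Of 12 haem synthesis and breakdown genes, RBCs were called higher in 3 and HBCs in 1, against 34.2% and 12.8% of all genes tested, and 8 were not called. Their median log2 change was -0.24. Alas1, the rate-limiting enzyme of haem synthesis, was 4.39-fold higher in RBCs (2672 against 609 ± 28.3, limma adjusted p = 0.000980). Blvrb, a biliverdin reductase, was 3.76-fold higher in RBCs (2217 against 590 ± 45.0) and Ppox, a late synthesis enzyme, was 2.87-fold higher (358 against 125 ± 10.5). Cpox, which acts just before it, was 2.29-fold higher in HBCs (431 in RBCs against 987 ± 32.3 in HBCs).

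Of 22 regulators on the list, 16 were tested, 9 were called higher in RBCs, against 34.2% of all genes tested, and 7 were not called. Among the 9, Nr1i2 and Nr1i3 were at or near 0 in every HBC library. The filter admitted both through their RBC value, which fixed their direction, so the count of 9 is a description. Ahr, the receptor behind family 1, was at 186 in RBCs and at 221, 203 and 210 in HBCs (limma adjusted p = 0.0865), although Cyp1a2 and Cyp1b1 differed in opposite directions. Of its other listed targets, Tiparp was at 277 in RBCs and averaged 408 ± 6.91 in HBCs, a change below 2-fold that exceeded it once library medians were equalised (log2 change -1.06), and Ahrr was at most 0.512 in any library. Ppara, the fatty acid receptor that drives Cyp4a genes, was at 132 in RBCs and averaged 4.40 ± 0.518 in HBCs (limma adjusted p = 0.00101). The oxysterol receptor Nr1h3 (49.7 against 4.10 ± 0.518) and the vitamin D receptor Vdr (136 against 19.2 ± 0.959) were also called higher in RBCs.

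Of 25 tested enzymes of oxidation and hydrolysis outside the P450 family, RBCs were called higher in 20 and HBCs in 1, against 34.2% and 12.8% of all genes tested, and 4 were not called, with a median log2 change of 2.80. Among the 20, Fmo1, Fmo4 and Ces1g averaged below 1 in HBCs. The filter admitted these genes through their RBC value, which fixed their direction, so the count of 20 is a description. The flavin monooxygenase Fmo1 was at 2143 in RBCs and averaged 0.800 ± 0.335 in HBCs. The alcohol dehydrogenase Adh1 was at 10849 in RBCs and at 0, 7.38 and 1.63 in HBCs, a call lost without HBC library 3 (limma adjusted p = 0.0638, range 0.00104 to 0.0638). Ephx2, the soluble epoxide hydrolase, which acts on the products of Cyp2j and Cyp2c enzymes, was higher in HBCs (16.4 in RBCs against 42.6 ± 4.34 in HBCs, 2.60-fold, limma adjusted p = 0.0111). That call failed without HBC library 3 (0.0554, range 0.000717 to 0.0657), with values as deposited and with a pseudocount of 10.

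Most listed markers of other cells were also called higher in RBCs, although Aqp5, Cd68 and Egfl7 were called higher in HBCs. The marker counts below stand against shares of 34.2% (RBCs) and 12.8% (HBCs) over the 16438 genes tested. Markers averaging below 1 in HBCs passed the filter through their RBC value, which fixed their direction, so the counts are a description. At 0 in every HBC library were 6 tested Bowman's gland, 4 leukocyte, 3 endothelial, 2 ciliated, 2 olfactory neuron and 2 secretory markers. Basal markers were present in both groups, with 7 of 11 called higher in RBCs, 1 higher in HBCs and 3 not called, and sums of 75589 in RBCs and 42846 to 45431 in HBCs. Krt5 was not called (26422 in RBCs against 18579 ± 368 in HBCs), Trp63 was higher in RBCs (4296 against 545 ± 12.8), and Krt17 was 2.15-fold higher in HBCs (8369 in RBCs against 17961 in HBCs). All 9 listed sustentacular markers were called higher in RBCs, and without the abundant Cbr2 they summed to 59587 in RBCs and 907 to 921 in HBCs. Of these, Sec14l3 was at 7478 in RBCs and at most 0.493 in HBCs. Of 10 Bowman's gland markers 8 were called higher in RBCs, and without Aqp5, which was higher in HBCs, they summed to 109915 in RBCs and 199 to 204 in HBCs, with Sox10, Gpx6, Dcpp1, Dcpp2, Bpifb9b and Muc5b at 0 in every HBC library. Leukocyte markers (11 of 16 tested called higher in RBCs, 1 in HBCs) summed to 16936 in RBCs and 3374 to 3553 in HBCs. Lyz2 carried most of the RBC sum, and without it the list summed to 2203 in RBCs and 3353 to 3535 in HBCs, the opposite order. Cd14 (1319 in RBCs against 2585 ± 73.5 in HBCs) and Cd68 (65.5 against 514 ± 42.5) held most of that HBC sum. Csf1r, Tyrobp, Fcer1g and C1qb were at 0 in every HBC library and between 35.4 and 69.0 in RBCs. Fibroblast markers (10 of 11) summed to 7948 in RBCs and 154 to 169 in HBCs, or 1063 and 112 to 123 without Dcn. Endothelial markers (10 of 12, and 1 higher in HBCs) summed to 169 in RBCs and 94.2 to 146 in HBCs. Egfl7, the 1 higher in HBCs, held most of that HBC sum (19.3 in RBCs against 108 ± 27 in HBCs). No other endothelial marker averaged above 4.72 in HBCs. Olfactory neuron markers (10 of 10) summed to 5555 in RBCs and 136 to 165 in HBCs. Ciliated cell markers (9 of 10) summed to 7827 in RBCs and 1343 to 1447 in HBCs. Tuba1a, which was not called, held most of that HBC sum (2282 in RBCs against 1215 ± 79.3 in HBCs). Secretory markers (9 of 9) summed to 518676 in RBCs and 1239 to 1316 in HBCs, or 80362 and 1229 to 1311 without Bpifa1, with Scgb1a1 at 0 throughout. Because sustentacular and gland cells are known carriers of nasal P450s, these values stand beside every P450 result above. Their part in the P450 levels was not tested.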

How the data were processed

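RNA from 1 RBC and 3 HBC samples was prepared with a column kit and standard Illumina libraries, per the labels. The authors deposited 1 table of values named FPKM. Cufflinks 2.2.1, Cuffnorm, STAR and mm9 appear in the submitters' processing notes; for annotation, strand and filters the sources used here give nothing, and counts and depth are unknown. Where a gene stayed below 4 throughout, 12.3% to 26.0% of ratios between a pair of libraries lay within 2% of 1. The fullest window of equal width centred farther from 1 held 8.26% to 11.6%. The margin was narrow for RBCs against HBC library 2 (12.3% near 1, 9.92% farther away). A read thus seemed worth the same in each library. Values were therefore divided by each library's median ratio to the geometric mean over 11134 genes at 10 or more in all libraries. Genes whose mean of the RBC value and the HBC mean was at least 1 were fitted with limma 3.58.1 (trend, two-sided) in R 4.3.3, after a test on simulated data. Members reaching 10 in a library, the markers and set genes of companion lists were named. Members and lists were chosen with earlier results of these data known. Each value was recomputed under 12 alternative settings. Motifs and alignments used Biopython 1.88. The values of 1 named gene of the other oxidising enzymes are not reported here.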

Additional observations from a re-analysis of the deposited data

How the results depend on the processing

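Of 30 named P450 genes, 18 kept direction and call under all 12 alternatives. The 31 and 3 members called higher in RBCs and in HBCs ranged from 22 to 34 and from 2 to 4. Over all genes, the 5619 called higher in RBCs became 3158 after quantile normalization, and the 2105 called higher in HBCs became 3869 with medians set equal and 3664 after quantile normalization. The summed P450 fold of 17.3 became 18.6 on deposited values, 18.6 on equal sums and, in settings chosen after seeing the data, 12.2 with medians set equal and 18.8 after quantile normalization. With medians set equal, redox partners gave 0 calls higher in RBCs and 4 in HBCs, haem genes 4 in HBCs (3 after quantile normalization), and other oxidising enzymes 2 in HBCs (0 as deposited, 0 with a pseudocount of 10 and 0 to 1 without 1 HBC library). For regulators, limma called 0 higher in HBCs (3 at an unadjusted p under 0.05), against 3 with medians equal, 2 after quantile normalization, 1 with a minimum of 5 and 0 to 1 without 1 HBC library. Directions turned in genes that were not called: Cyp20a1 (log2 change -0.01) was at 0.11 as deposited, 0.10 with equal sums and -0.0505 to 0.0316 without 1 HBC library; Cyp4f16 (0.24) was at -0.26 with medians equal and -0.42 after quantile normalization; Por (0.01) was at -0.49 with medians equal and -0.00865 to 0.0254 without 1 HBC library. The cause was not tested. No paired analysis was run, because nothing in the labels pairs the RBC library with an HBC library. Depth in reads is unknown and the RBC group is 1 library, so differences near 2-fold rest on the assumed spread.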

Other observations

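Of the 10 P450 symbols outside the rule, 4 were high enough to test, and the other 6 did not exceed 0.499 in any library. Their values had been seen before they were named. Cyp51, the sterol demethylase of cholesterol synthesis, was at 432 in RBCs and 1018 ± 7.98 in HBCs (log2 change -1.23, limma adjusted p = 0.000133). The fatty acid hydroxylases Cyp4a12b and Cyp4a12a are near-identical copies, between which the split of reads is uncertain. Cyp4a12b was at 1356 in RBCs and averaged 446 ± 29.4 in HBCs (log2 change 1.60, limma adjusted p = 0.00294), and Cyp4a12a was at 209 in RBCs and averaged 55.6 ± 23.0 in HBCs (limma adjusted p = 0.0933, not called). The pseudogene Cyp4f41-ps was at 0 in RBCs and averaged 2.88 ± 0.293 in HBCs, which is near the level of a few reads.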
